A study of Mus musculus with 27 samples.

Results

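The genes described here are 10 genes by which conventional type 1 dendritic cells (cDC1s) are commonly recognised: *Irf8*, *Batf3*, *Id2*, *Zbtb46*, *Xcr1*, *Clec9a*, *Cadm1*, *Flt3*, *Naaa* and *Ly75*. They were chosen by name, and their probes are those whose symbol in the deposited table equals one of these names. Of the 10 genes, 9 were found, with 13 of the 45281 probes in the table, which carry 30869 distinct symbols. *Cadm1* had no probe under that name. A probe listed as *Igsf4a*, which RefSeq gives as an older symbol of *Cadm1*, is described beside the members and counted with none of them.

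The platform was the Illumina MouseWG-6 BeadChip, an array of 1 colour that reports for each probe how bright its beads are. The cells were sorted from the colon lamina propria of C57BL/6 mice that drank 2% dextran sodium sulfate (DSS), which injures the colon epithelium, so that mice of both genotypes had colitis. The paper reports that it was worse in *Mbd2*-/- than in WT mice, with more weight loss and tissue damage. Genotype and severity of colitis therefore cannot be told apart in the comparisons of genotypes. WT mice were co-housed littermates, the mice were matched for age and sex, and the *Mbd2* deficiency was not restricted to any cell type. The study sorted cDC1s as CD11b-CD11c+CD103+ cells, which the sample labels call CD11b-negative DCs, monocytes as CD11b+Ly6C+ cells, and macrophages as CD11b+Ly6C-MHC-II+F4/80+ cells. The cDC1s were represented by 2 WT and 3 *Mbd2*-/- arrays, and macrophages and monocytes by 5 of each genotype. An array could hold RNA of a single mouse or of several, and the paper and the deposited record differ in how many. Arrays are named by the number in their label. Values of splenic CD4 T cells, from 1 array per genotype, are quoted in places and entered no comparison. Their sample records give a time after a transfer and list no DSS. For these values all arrays were normalized together.

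cDC1s are the dendritic cells that take up dead cells and present their antigens to CD8 T cells, and they arise from precursors in bone marrow that depend on the cytokine receptor Flt3. Their development needs the transcription factors Irf8, Batf3 and Id2: Irf8 and Batf3 hold a shared enhancer state, and Id2 restrains the E proteins that favour plasmacytoid dendritic cells. Zbtb46 marks conventional dendritic cells as a class. Xcr1, Clec9a, Cadm1 and Ly75 (DEC-205) are surface proteins by which the mature cell is told from macrophages and from other dendritic cells.

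The mean deposited intensity per array ran from 172 to 353, and 16024 to 18608 probes per array were above background, meaning a detection p under 0.05 against the negative control probes of that array. The *Mbd2* probe was above background on 0 of the 12 WT and 0 of the 13 *Mbd2*-/- arrays, which left the genotype labels unchecked. No 2 arrays held identical values, and replicates of a group correlated at 0.955 to 0.988. Markers of other cells were present on the cDC1 arrays and differed among them. The summed normalized intensity of 12 T and NK cell markers was 4822 and 1527 on the WT arrays and 2328, 4072 and 1102 on the *Mbd2*-/- arrays, against 489 to 1038 on all macrophage and monocyte arrays. The same sum for 10 epithelial markers was 21815 and 5818 on the WT and 14847, 15144 and 7507 on the *Mbd2*-/- cDC1 arrays, so that array 23 was highest and array 26 lowest. For 12 macrophage markers it was 4231 and 4840 on the WT cDC1 arrays and 5810, 4898 and 8957 on the *Mbd2*-/- ones, against 56568 to 64330 in macrophages. The sums of macrophage, monocyte, plasmacytoid dendritic cell, B and plasma cell, and granulocyte markers were all higher on each *Mbd2*-/- than on either WT cDC1 array. *Itgae*, which encodes the CD103 used in the sort, was at 12.90 to 13.18 (normalized log2 intensity) on the 5 cDC1 arrays.

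All levels below are normalized log2 intensities, on which probes that are not above background lie near the floor of the scale. Levels were compared for a probe across arrays and never between probes. The first question was where the members stood highest. Of the 9 genes found, 5 were called higher in cDC1s than in macrophages and 0 were called lower, and the same 5 genes were called higher in cDC1s than in monocytes. These were the transcription factor genes *Irf8*, *Batf3* and *Zbtb46* and the receptor genes *Xcr1* and *Clec9a*. A call required both an adjusted p under 0.05 and a difference of at least 1 on the log2 scale. Among all tested probes 8% were called higher in cDC1s than in macrophages and 8.4% higher in cDC1s than in monocytes, or 16.3% and 17.2% in either direction. The 5 genes were also higher on every cDC1 array than on any array of the other cell type, as were 10.3% and 14% of tested probes. In bulk samples such as these, fewer cells of a type and less RNA per cell cannot be told apart. The plot of the members by array shows each value.

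**Figure D1:**
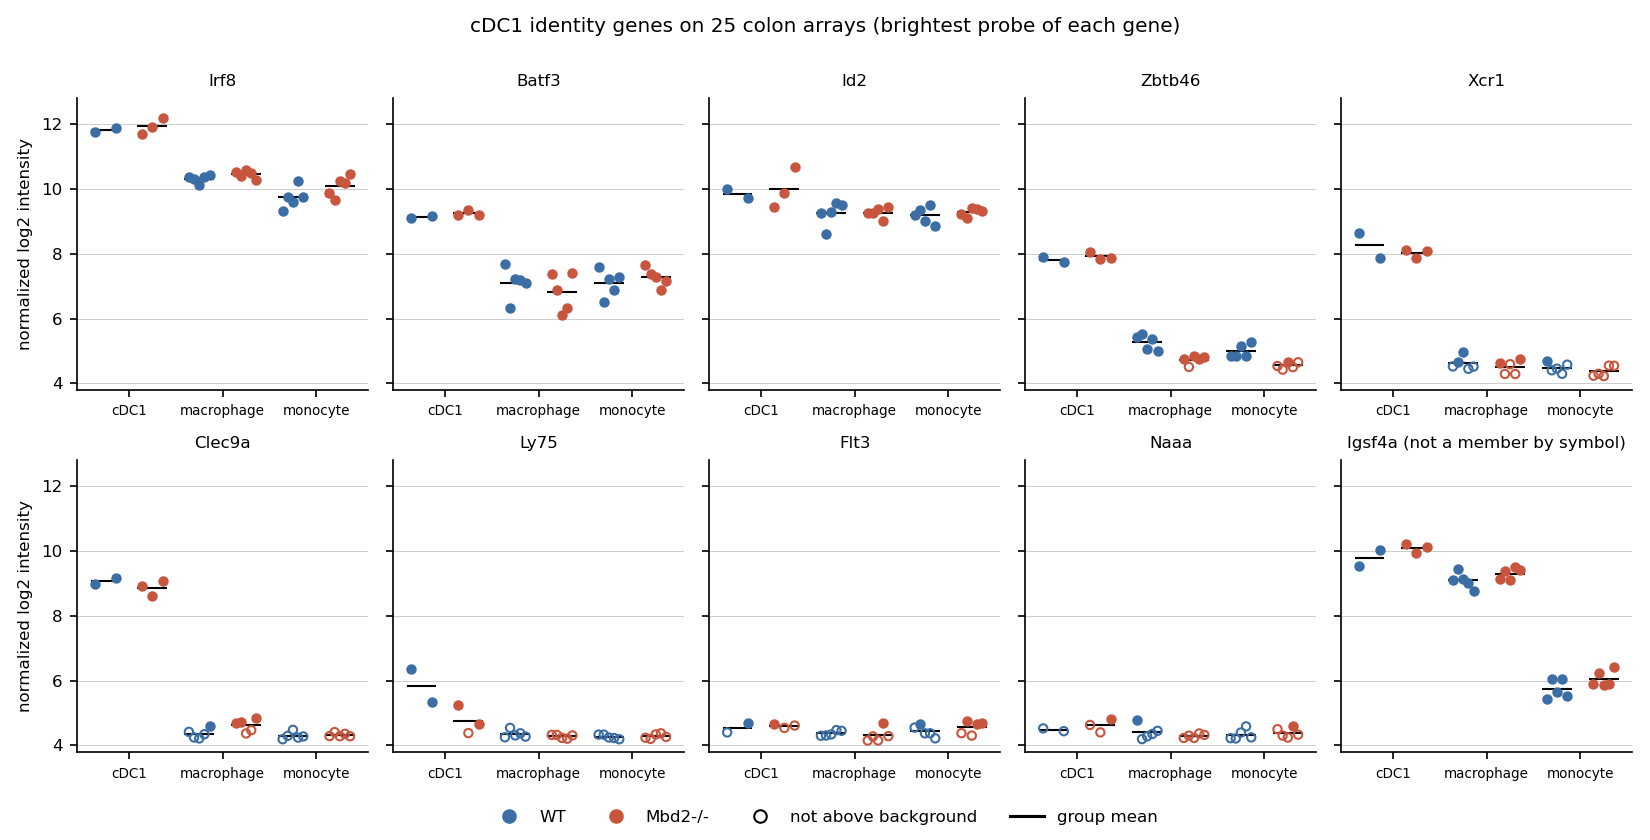
Normalized log2 intensity (y axis) of the brightest probe of each gene on the 25 colon arrays, grouped by cell type (x axis) and coloured by genotype; open circles are arrays on which the probe was not above background, and lines are group means. *Irf8*, *Batf3*, *Zbtb46*, *Xcr1* and *Clec9a* lie higher on all 5 cDC1 arrays than on any other array, while *Flt3* and *Naaa* lie at background in most groups.

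*Irf8* encodes the interferon regulatory factor on which the cDC1 lineage depends, and it is also used by monocytes and macrophages. It read 11.75 and 11.90 on the WT cDC1 arrays and 11.70, 11.90 and 12.20 on the *Mbd2*-/- cDC1 arrays. In macrophages the lowest, median and highest of 10 arrays were 10.13, 10.39 and 10.60, and in monocytes they were 9.32, 9.82 and 10.46. All cDC1 arrays lay above all others. cDC1s exceeded macrophages 2.81-fold (1.49 on the log2 scale, standard error 0.13, adjusted p = 2.15e-09) and monocytes 3.90-fold (1.96, standard error 0.13, adjusted p = 2.09e-11). The difference from macrophages was 0.99 with median scaling, under the minimum fold change, a setting in which the median of all tested probes shifted by -0.28. *Irf8* was thus abundant in all 3 cell types, with the cDC1s highest.

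*Batf3*, the AP-1 family factor that partners Irf8, read 9.10 and 9.17 on the WT cDC1 arrays and 9.18, 9.35 and 9.20 on the *Mbd2*-/- cDC1 arrays. The standard deviation over the 5 arrays was 0.094, against 0.54 in macrophages and 0.35 in monocytes. Macrophage arrays ran from 6.11 through a median of 7.15 to 7.70, and monocyte arrays from 6.51 through 7.25 to 7.65, so those cell types overlapped each other and neither overlapped cDC1s. The log2 fold change was 2.23 over macrophages (standard error 0.22, adjusted p = 2.60e-08) and 2.00 over monocytes (standard error 0.22, adjusted p = 1.18e-07).

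*Zbtb46*, the zinc finger gene shared by conventional dendritic cells, read 7.89 and 7.74 in WT and 8.05, 7.83 and 7.88 in *Mbd2*-/- cDC1s. It was above background on 9 of 10 macrophage arrays (4.51 to 5.52, median 4.91) and on 6 of 10 monocyte arrays (4.42 to 5.26, median 4.75). The gap between the lowest cDC1 array and the highest macrophage array was 2.22. cDC1s exceeded macrophages by 2.86 (standard error 0.09, adjusted p = 1.35e-16) and monocytes by 3.09 (standard error 0.09, adjusted p = 3.78e-17) on the log2 scale.

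*Id2*, the inhibitor of E proteins, differed far less between the cell types. Its brighter probe read 9.99 and 9.72 in WT and 9.43, 9.87 and 10.68 in *Mbd2*-/- cDC1s, 8.60 to 9.58 in macrophages (median 9.27) and 8.87 to 9.51 in monocytes (median 9.28). The lowest cDC1 array lay within the range of both other cell types. The difference was 0.67 from macrophages (standard error 0.17, adjusted p = 0.00184) and 0.69 from monocytes (standard error 0.17, adjusted p = 0.00142). Both passed the adjusted p, as 54.2% and 54.6% of tested probes did, and neither reached the minimum fold change. The dimmer *Id2* probe gave 0.55 (adjusted p = 0.0576) and 0.89 (adjusted p = 0.00335). *Id2* was also bright in splenic CD4 T cells (11.26 and 10.91), which came from a transfer without DSS and were normalized separately with the colon arrays. The part of the T cell signal on the cDC1 arrays in the *Id2* values was not tested. *Id2* was highest on array 30, the cDC1 array with the lowest T and NK cell sum.

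*Xcr1* encodes the receptor for the chemokine XCL1, by which cDC1s respond to NK cells and CD8 T cells. It read 8.64 and 7.88 in WT and 8.10, 7.87 and 8.09 in *Mbd2*-/- cDC1s, 4.29 to 4.98 in macrophages and 4.22 to 4.68 in monocytes. It was above background on all 5 cDC1 arrays, on 4 of 10 macrophage arrays and on 1 of 10 monocyte arrays. The log2 fold change was 3.57 over macrophages (standard error 0.12, adjusted p = 1.67e-16) and 3.71 over monocytes (standard error 0.12, adjusted p = 8.56e-17). Since most arrays of the other cell types were not above background, these differences are measured against a signal mostly at background, and the probe entered the tests mainly through the cDC1 arrays.

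*Clec9a* encodes the lectin that binds actin exposed by dead cells. It had the widest separation of the members, with 8.97 and 9.18 in WT and 8.92, 8.61 and 9.08 in *Mbd2*-/- cDC1s. Macrophages ran from 4.22 to 4.85, with 4 of 10 arrays above background, and monocytes from 4.19 to 4.48, with 0 of 10. cDC1s exceeded macrophages by 4.48 on the log2 scale (standard error 0.08, adjusted p = 6.23e-20). They were at least 20.3-fold above monocytes, counted against the dimmest signal that still passed as above background (adjusted p = 1.76e-20). The dimmer *Clec9a* probe was above background on all cDC1 arrays and on no other colon array, and put cDC1s at least 5.86-fold above macrophages and at least 5.69-fold above monocytes. Its values in cDC1s (6.21 and 7.44 in WT, 6.88, 7.52 and 7.96 in *Mbd2*-/-) lay lowest on array 23 and highest on array 30.

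*Ly75* encodes DEC-205, an endocytic receptor used to target antigens to these cells. The brighter of its probes was above background on 4 of 5 cDC1 arrays and on none of the 10 macrophage or the 10 monocyte arrays. It read 6.35 and 5.34 in WT and 5.26, 4.38 and 4.67 in *Mbd2*-/- cDC1s, against at most 4.54 in macrophages and 4.38 in monocytes. The lowest cDC1 array overlapped the macrophage range. Too few arrays were above background for a test between cell types. As lower bounds, the mean of the WT and *Mbd2*-/- cDC1 groups was at least 1.65-fold above macrophages and at least 1.60-fold above monocytes. The WT mean was 5.84 and the *Mbd2*-/- mean 4.77, where the dimmest signals above background averaged 4.59 in macrophages and 4.63 in monocytes. The bounds therefore rest mainly on the WT arrays and do not hold for each cDC1 array. The dimmer *Ly75* probe was above background on none of the 25 arrays.

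*Flt3*, the receptor of the cytokine that sustains dendritic cells, and *Naaa*, a lysosomal amidase that is abundant in cDC1s of lymphoid organs, were at the limit of detection. *Flt3* was above background on 2 of 5 cDC1, 1 of 10 macrophage and 4 of 10 monocyte arrays, with all values between 4.15 and 4.77. Its difference between cDC1s and monocytes was 0.08 (95% interval -0.11 to 0.27, adjusted p = 0.495). *Naaa* was above background on 1 cDC1, 1 macrophage and 1 monocyte array and was tested in no comparison. These probes left no difference detectable, and the bead signals at this level give no order of the cell types.

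The *Igsf4a* probe, for which the table lists no accession, read 9.54 and 10.03 in WT and 10.22, 9.95 and 10.11 in *Mbd2*-/- cDC1s, 8.77 to 9.51 in macrophages and 5.43 to 6.43 in monocytes. *Cadm1* encodes an adhesion molecule used to mark cDC1s across species. Here the probe was bright in macrophages too. cDC1s exceeded macrophages by 0.74 (standard error 0.13, adjusted p = 5.89e-05), which is under the minimum fold change, and exceeded monocytes by 4.04 (standard error 0.13, adjusted p = 1.62e-16). Macrophages in turn exceeded monocytes by 3.30 (standard error 0.11, adjusted p = 2.68e-15). The arrays of the 3 cell types did not overlap, but the lowest cDC1 array lay only 0.03 above the highest macrophage array. Of all tested probes, 10.3% were higher on every cDC1 array than on any macrophage array.

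**Figure D2:**
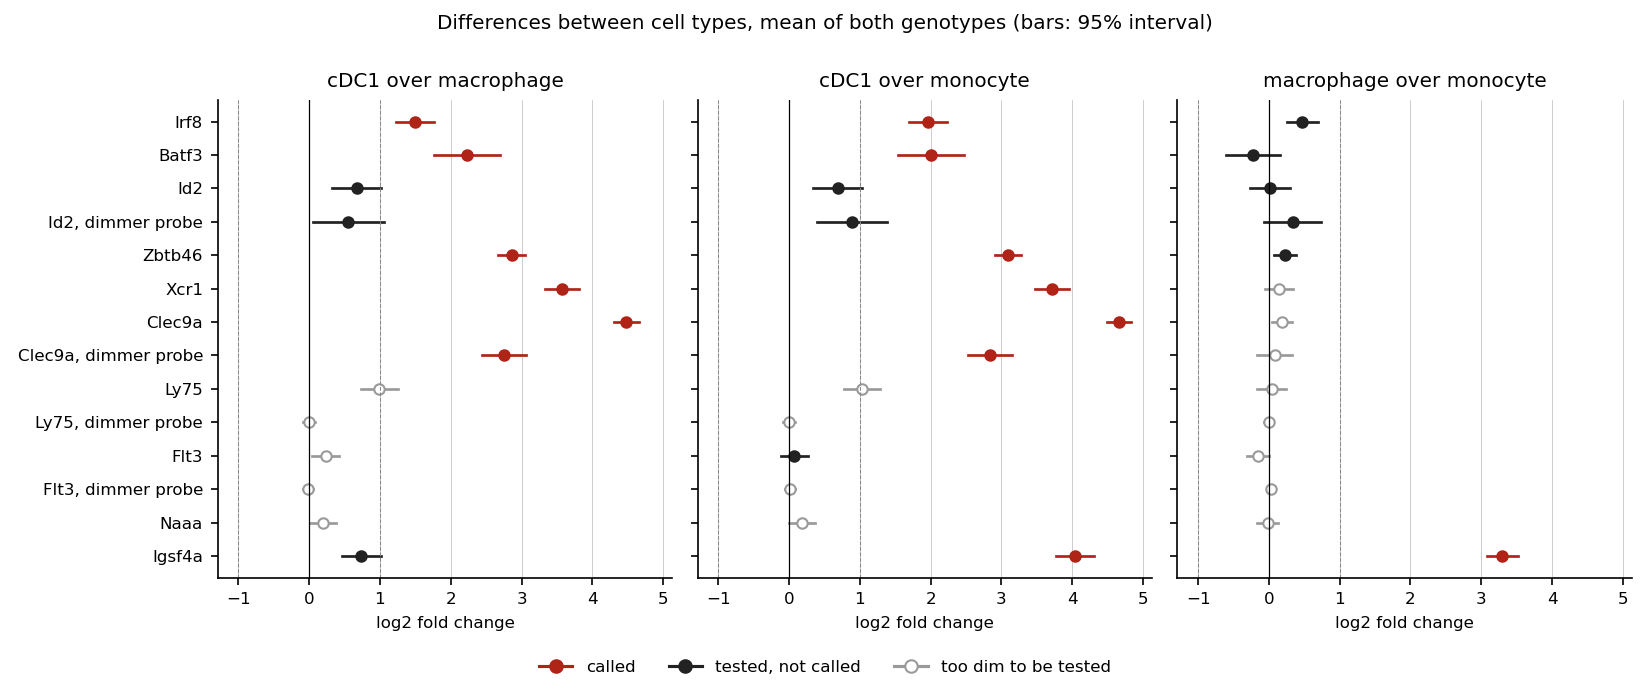
Log2 fold change (x axis) with its 95% interval for each probe (y axis) in 3 comparisons of cell types, each the mean of the WT and the *Mbd2*-/- difference; red marks called probes, grey open circles probes too dim to be tested, and dashed lines the minimum fold change. *Clec9a* stood at 4.48 over macrophages, while its point over monocytes is measured against a signal at background and stands for at least 20.3-fold, *Id2* stood at 0.67 and 0.69, and the *Igsf4a* probe at 0.74 over macrophages but 4.04 over monocytes.

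Over the 9 genes, tested or not, the median log2 fold change was 1.49 against macrophages and 1.96 against monocytes, while the median of all tested probes was -0.011 and -0.014. *Clec9a* and *Xcr1* entered these tests mostly through the cDC1 arrays, since a probe had to be above background on at least 5 of the 15 arrays compared. The arrays stand in runs of 6 neighbouring columns in the deposited table, and whether a run is a chip is not given by the labels. Within runs, the WT cDC1 array exceeded WT monocytes by 2.94 and 2.68 for *Zbtb46*, 1.99 and 2.09 for *Batf3* and 2.19 and 1.89 for *Irf8*. In the same way an *Mbd2*-/- cDC1 array exceeded *Mbd2*-/- macrophages by 3.28 and 3.13 for *Zbtb46*, 2.32 and 2.57 for *Batf3* and 1.32 and 1.39 for *Irf8*. The differences of *Zbtb46*, *Batf3* and *Irf8* were thus present within single runs. For *Clec9a* and *Xcr1*, most arrays of the other cell types were not above background, and no within-run value is given.

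Between macrophages and monocytes, 4 of the 9 genes could be tested and 0 were called, where 4.89% of all tested probes were called. The adjusted p alone was passed by 2 of the 4, and by 40.4% of all tested probes. *Irf8* was 1.39-fold higher in macrophages (0.47 on the log2 scale, standard error 0.10, adjusted p = 0.000843) and *Zbtb46* 1.17-fold higher (0.23, standard error 0.07, adjusted p = 0.0153), both under the minimum fold change and with overlapping arrays. *Batf3* differed by -0.22 (95% interval -0.60 to 0.15, adjusted p = 0.353) and *Id2* by 0.02 (95% interval -0.26 to 0.30, adjusted p = 0.940). No run held both cell types, so runs and this comparison cannot be told apart.

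Mbd2 binds DNA that is methylated at CpG dinucleotides, so the CpG content of the members' promoters is given as context. No methylation was measured on these samples. RefSeq windows of 300 bases (250 before to 50 after a start site, GRCm38.p6) were matched for all 9 genes, with 10 windows of 32851 in the table. CpG counts were 38 and 8 for the start sites of *Irf8*, 34 for *Batf3*, 21 for *Id2*, 21 for *Ly75*, 18 for *Flt3*, 12 for *Naaa*, 6 for *Xcr1*, 1 for *Clec9a* and 1 for *Zbtb46*. The median over all windows was 7, with quartiles of 3 and 20. *Clec9a*, with its single CpG, had more CpG than 5.43% of windows, *Xcr1* more than 43.6%, *Ly75* more than 75.2% and *Batf3* more than 92.3%. The 150 bases before the start site are shown for 4 members, with CpG in capitals. *Clec9a* and *Xcr1* were above background on all cDC1 arrays and at or near background elsewhere. *Batf3* was above background in all 3 cell types and called higher in cDC1s. *Ly75* was called lower in *Mbd2*-/- cDC1s, a call that several alternatives given below did not keep. The windows are *Clec9a* at chr6:129408712-129408861 on the plus strand, *Xcr1* at chr9:123862030-123862179 on the minus strand, *Batf3* at chr1:191098264-191098413 on the plus strand and *Ly75* at chr2:60383274-60383423 on the minus strand.
Clec9a: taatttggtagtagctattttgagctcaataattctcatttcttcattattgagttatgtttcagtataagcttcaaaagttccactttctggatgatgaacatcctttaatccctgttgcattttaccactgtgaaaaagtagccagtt
Xcr1: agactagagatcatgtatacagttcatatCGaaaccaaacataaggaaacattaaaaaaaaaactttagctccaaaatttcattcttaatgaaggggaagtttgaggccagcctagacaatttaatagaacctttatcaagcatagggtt
Batf3: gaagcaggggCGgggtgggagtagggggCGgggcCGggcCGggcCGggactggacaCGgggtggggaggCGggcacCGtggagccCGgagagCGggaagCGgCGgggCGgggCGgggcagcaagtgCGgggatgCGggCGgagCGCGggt
Ly75: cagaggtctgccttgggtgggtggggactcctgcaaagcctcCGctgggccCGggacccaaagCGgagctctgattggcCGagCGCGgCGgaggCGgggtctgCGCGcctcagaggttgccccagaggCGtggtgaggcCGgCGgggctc

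These stretches hold 0, 1, 19 and 13 CpG, in that order. Of motifs searched on both strands of the 300-base windows, the AP-1 element TGANTCA was in 1 of the 10 member windows, that of *Zbtb46* (61 to 55 bases before the start), and in 7.81% of all windows. The E-box CAGCTG was in that of *Id2* (196 to 191 bases before the start) and in 16.3% of all windows. The interferon-stimulated response element (GAAA, any 2 bases, GAAA, in 3.44% of all windows), the Ets-Irf composite element (GGAA, any 2 bases, GAAA, in 2.72%) and the AP-1-Irf composite element (TTTC, any 4 bases, TGANTCA, in 0.119%), which contains the AP-1 element, were in 0 of the member windows.

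The question the study put to these arrays was how *Mbd2* deficiency changes each cell type. In cDC1s, 8 of the 9 genes could be tested and 1 was called, *Ly75*, which was lower in *Mbd2*-/-, where 1.88% of all tested probes were called and 1.13% were called lower. The *Ly75* values (6.35 and 5.34 in WT, 5.26, 4.38 and 4.67 in *Mbd2*-/-) did not overlap between genotypes, as for 14.8% of tested probes in this direction, and the gap between the groups was small beside the spread within WT. The log2 fold change was -1.08 (standard error 0.20, adjusted p = 0.00368), or 2.11-fold lower. The deposited intensities were 185 and 119 in WT and 102, 81.9 and 87.1 in *Mbd2*-/-, where the mean of the negative control probes was 89.4 and 91.7 in WT and 84.5, 80.2 and 82.2 in *Mbd2*-/-.

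*Ly75* was not called without WT array 23 (-0.57, adjusted p = 0.0986) or without *Mbd2*-/- array 28 (-0.89, adjusted p = 0.0148), nor when cDC1 arrays were normalized and fitted alone (-0.89, adjusted p = 0.266). It fell under the minimum fold change with no background correction (-0.41) and with an offset of 50 (-0.59). *Ly75* was above background in splenic CD4 T cells of both genotypes (6.08 and 6.10). T and NK cell markers were highest on array 23, which also had the highest *Ly75*. They were nearly as high on array 28, which had the lowest *Ly75*, and lower on array 26 than on arrays 27 and 28. The part of T and NK cells in the *Ly75* difference was not tested. The WT cDC1 arrays were also the brighter ones, with mean intensities of 265 to 292 and at least 17443 probes above background, against 172 to 228 and at most 16572 for *Mbd2*-/-. The 5 arrays fell in the same order by mean intensity as by *Ly75*, and the part of array brightness in the *Ly75* difference was not tested. The summed markers of other cells also moved with genotype: every *Mbd2*-/- cDC1 array exceeded both WT arrays for monocyte markers (2113 to 2495 against 1672 and 1895), plasmacytoid dendritic cell markers (2119 to 2500 against 1997 and 1606), B and plasma cell markers (395 to 633 against 353 and 388) and granulocyte markers (216 to 220 against 148 and 168), as for the macrophage markers above. Their part in the *Ly75* difference was not tested. Each cDC1 array lies in a different run of columns, so genotype and run cannot be told apart in cDC1s.

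**Figure D3:**
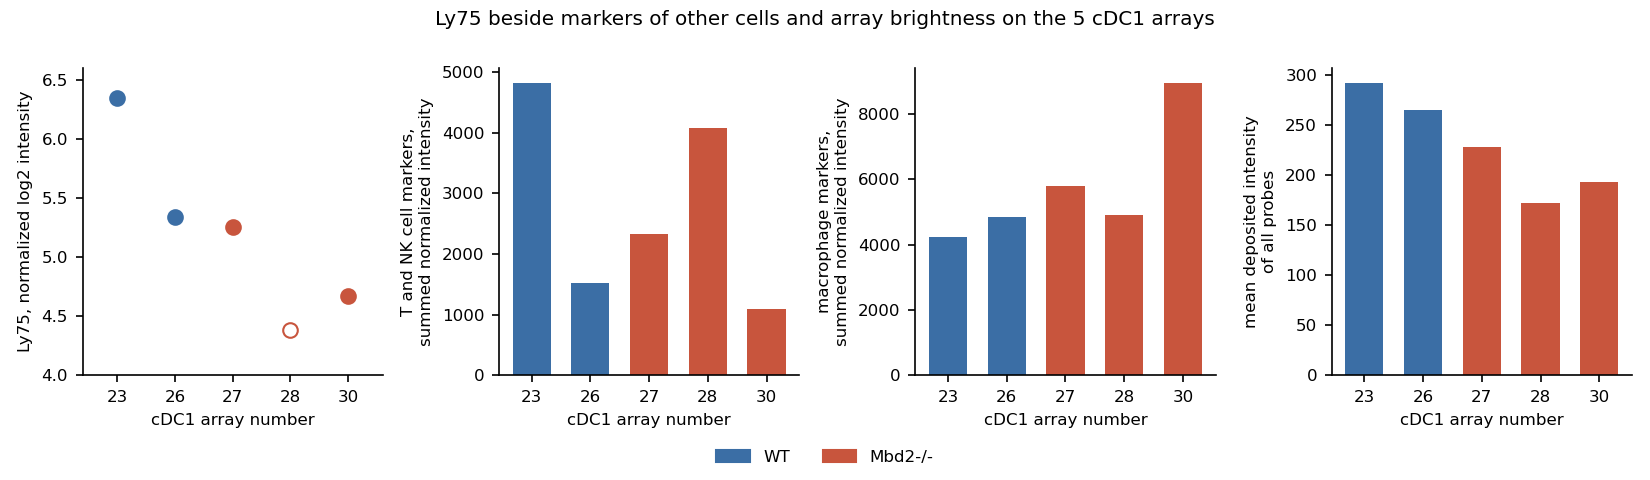
The 5 cDC1 arrays (x axis, WT blue and *Mbd2*-/- red) by normalized log2 intensity of *Ly75* (open circle, not above background; this axis starts at 4), the summed normalized intensity of 12 T and NK cell markers and of 12 macrophage markers, and the mean deposited intensity of all probes. *Ly75* and the mean intensity rank 23, 26, 27, 30, 28, and T and NK cell markers rank 23, 28, 27, 26, 30.

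The other members gave no called difference between WT and *Mbd2*-/- cDC1s. Log2 fold changes were 0.11 for *Irf8* (95% interval -0.33 to 0.55, adjusted p = 0.789), 0.11 for *Batf3* (-0.66 to 0.88, adjusted p = 0.881) and 0.10 for *Zbtb46* (-0.21 to 0.42, adjusted p = 0.71). *Batf3* was slightly higher on every *Mbd2*-/- array, as 16.9% of tested probes were. *Id2* gave 0.14 (-0.43 to 0.71, adjusted p = 0.799), and its dimmer probe 0.67 (-0.15 to 1.49, adjusted p = 0.294), with array 30 at 8.98 and all other cDC1 arrays at 6.96 to 7.18. *Xcr1* gave -0.24 (-0.64 to 0.15, adjusted p = 0.449). The *Clec9a* probes pointed opposite ways, at -0.21 (-0.49 to 0.08, adjusted p = 0.361) and 0.63 (0.12 to 1.13, adjusted p = 0.108). *Flt3* gave 0.07 (-0.25 to 0.38, adjusted p = 0.821), and the *Igsf4a* probe 0.31 (-0.14 to 0.76, adjusted p = 0.383). With 2 and 3 arrays, intervals reached a log2 change of 1 only for the dimmer *Id2* and *Clec9a* probes, apart from *Ly75*. Median scaling turned *Irf8*, *Batf3*, *Id2* and *Zbtb46* negative, by -0.21 to -0.52, in a setting where the median of all tested probes shifted by -0.37. In that setting *Xcr1* came to -0.83 (adjusted p = 0.0317) and *Clec9a* to -0.79 (adjusted p = 0.0302), both past the adjusted p and under the minimum fold change. *Xcr1* was also past the adjusted p without WT array 26 (-0.63, adjusted p = 0.0453), and had the opposite sign without WT array 23 (0.14, adjusted p = 0.752).

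In macrophages, 4 genes were testable and 0 were called, where 1.45% of all tested probes were called. *Zbtb46* was lower in *Mbd2*-/- macrophages, at 4.76, 4.51, 4.84, 4.74 and 4.80, than in WT macrophages, at 5.44, 5.52, 5.06, 5.38 and 4.99. All *Mbd2*-/- arrays lay below all WT arrays, as for 3.13% of tested probes. The log2 fold change was -0.55 (standard error 0.10, adjusted p = 0.00473), which passed the adjusted p, as 3.75% of probes did in this direction, but not the minimum fold change. Within the runs that held both genotypes it was -0.57 and -0.48. Over 12 other settings it ranged from -0.59 to -0.18, the smallest with no background correction, and the adjusted p from 0.0038 to 0.0872. It missed the adjusted p with median scaling (0.0872) and narrowly with macrophages fitted alone. *Irf8* (0.14, 95% interval -0.16 to 0.45), *Batf3* (-0.29, -0.82 to 0.24) and *Id2* (0.02, -0.38 to 0.41) had adjusted p of 0.57, 0.50 and 0.96.

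In monocytes, 4 genes were again testable and 0 were called, where 0.42% of all tested probes were called. *Zbtb46* read 4.85, 4.84, 5.16, 4.85 and 5.26 in WT monocytes, all above background, and 4.54, 4.42, 4.67, 4.5 and 4.65 in *Mbd2*-/- monocytes, of which 1 array (4.67) was above background. The groups did not overlap, as for 2.87% of tested probes. The log2 fold change was -0.44 (standard error 0.10, adjusted p = 0.0262), past the adjusted p, as for 1.3% of probes in this direction, and under the minimum fold change. It was -0.37 and -0.52 within runs. With single arrays left out, the adjusted p ranged from 0.0216 to 0.0965 and the change from -0.47 to -0.37, and the adjusted p missed the threshold without WT array 3 or 5 or *Mbd2*-/- array 6, 7 or 9. Over 12 other settings the change ranged from -0.51 to -0.14 and the adjusted p from 0.00994 to 0.231. The adjusted p was missed with cyclic loess (0.231) or median scaling, when dim probes were kept, and when the background was left uncorrected or the offset raised to 50. *Irf8* was at 9.32, 9.74, 9.61, 10.25 and 9.76 in WT and 9.88, 9.67, 10.25, 10.18 and 10.46 in *Mbd2*-/- monocytes, a change of 0.35 (95% interval 0.04 to 0.65, adjusted p = 0.242) with overlapping arrays. Its within-run values were 0.76 and -0.07.

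**Figure D4:**
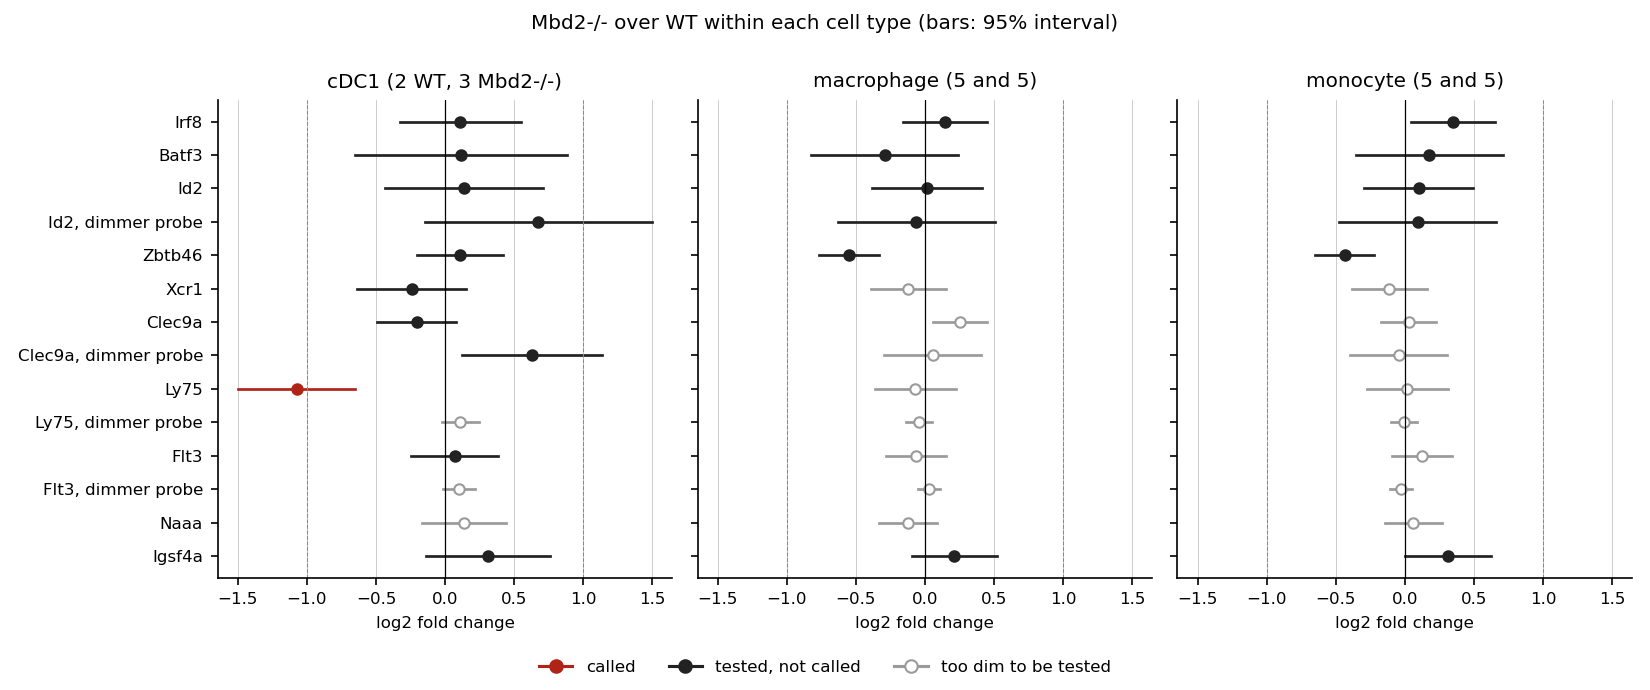
Log2 fold change of *Mbd2*-/- over WT (x axis) with its 95% interval for each probe (y axis) in cDC1s, macrophages and monocytes; red marks a called probe, black a tested probe that was not called, and grey open circles probes too dim to be tested. *Ly75* in cDC1s is the called probe, and *Zbtb46* lies below 0 in macrophages (-0.55) and monocytes (-0.44) but at 0.10 in cDC1s.

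Whether the genotype effect differed between cell types was tested as an interaction. For *Zbtb46* the effect in cDC1s exceeded that in macrophages by 0.65 (standard error 0.18, adjusted p = 0.0282), and that in monocytes by 0.54 (standard error 0.18, adjusted p = 0.111). In macrophages this probe lay near background, at deposited intensities of 100 to 128 in WT and 90.5 to 109 in *Mbd2*-/-. The negative control means on those arrays were 81.3 to 93.8. For *Ly75* the effect in cDC1s minus that in macrophages was -1.01 (standard error 0.25, adjusted p = 0.0175) and minus that in monocytes -1.09 (standard error 0.25, adjusted p = 0.0243). *Ly75* was above background on no macrophage or monocyte array, where a genotype effect could not be seen. Both values thus restate the cDC1 difference, with the same pooled spread, and do not show that it is particular to cDC1s. For *Clec9a* the effect in cDC1s minus that in macrophages was -0.46 (adjusted p = 0.0763), which missed the threshold. *Clec9a* was above background on 4 of 10 macrophage arrays, and its genotype effect was not tested there. The *Clec9a* value passed with median scaling (-1.05, adjusted p = 0.0177) and without macrophage array 15 (adjusted p = 0.0373) or 18 (adjusted p = 0.0448) or cDC1 array 30 (adjusted p = 0.0497), while the dimmer probe had the opposite sign (0.57, adjusted p = 0.215). Of all tested probes 10.8% and 2.44% passed these tests. Between macrophages and monocytes no member passed, and 0.0402% of probes did; *Zbtb46* differed by -0.11 (95% interval -0.42 to 0.19, adjusted p = 0.886).

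The *Zbtb46* interaction with macrophages missed the adjusted p without WT cDC1 array 23 (adjusted p = 0.0772) or 26 (adjusted p = 0.0822), fell to 0.37 (adjusted p = 0.326) with cyclic loess and came to -0.00012 with median scaling. The *Ly75* interactions were -0.50 (adjusted p = 0.215) and -0.59 (adjusted p = 0.192) without array 23, and the interaction with monocytes also missed the threshold without array 28 (adjusted p = 0.0548) or 30 (adjusted p = 0.0580).

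Other genes of the cDC1 programme were listed from general knowledge of the lineage, with earlier results of these data already known. Their counts are therefore no independent check of the members. Of 21 cDC1-associated genes, 18 had a probe, 15 were tested against macrophages, 13 were called higher in cDC1s and 0 lower. Against monocytes, 12 of 14 tested were called higher. Of all tested probes, 8% and 8.4% were called higher in these comparisons. Apart from *Itgae*, which the sort selected for, the largest differences from macrophages were in *Gpr33*, a chemoattractant receptor gene (4.57), *Snx22*, a sorting nexin gene (4.00), *Tlr11*, which senses profilin of protozoa (3.74), *Gcsam* (3.73) and *Sept3* (3.72). *Tlr3*, the sensor of double-stranded RNA, was higher by 1.73 than in macrophages. Of these genes *Gpr33*, *Snx22*, *Tlr11*, *Gcsam* and *Sept3* were above background on 2 to 7 of the 10 macrophage arrays, so that their differences too are measured against a signal partly at background. *Cd8a*, found on cDC1s of spleen, was at 4.22 to 4.83 on the cDC1 arrays and not tested, and *Ifi205* was called against macrophages (2.11) but not against monocytes (0.56, adjusted p = 0.134).

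Of 17 genes shared by conventional dendritic cells, 15 had a probe, and 11 of the 14 tested were called higher than in macrophages. Against monocytes 10 were higher and 1, *Ass1*, lower (-1.32). The shares of all tested probes called higher were 8% and 8.4%. *Btla*, an inhibitory receptor gene, differed by 4.33 from macrophages and 4.56 from monocytes, *Kit* by 2.46 and 3.03, *Ap1s3* by 2.88 and 2.57, *Hmgn3* by 2.59 and 2.68, and *Dpp4* by 2.41 and 2.24.

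Of 28 genes that steer dendritic cell development, 26 had a probe and 25 were tested. They split, with 5 called higher and 4 lower than in macrophages, and 4 higher and 6 lower than in monocytes. In either direction, 16.3% and 17.2% of all tested probes were called in these comparisons. *Mycl*, which sustains cDC1 growth, was higher by 4.08 and 5.05. *Zeb2*, which directs precursors to other fates, was lower, by -3.71 and -3.84, and so was *Tcf4*, the E protein gene of plasmacytoid dendritic cells, by -1.68 and -1.43. *Id3*, a relative of *Id2*, was lower by -1.39 and -2.10, *Batf2* by -1.33 and -2.28, and *Ciita*, the master regulator of MHC-II, was higher by 1.78 and 1.54. All 12 macrophage markers tested were called lower in cDC1s than in macrophages, with a median of -4.12. Of 9 T and NK cell markers tested, 6 were called higher and 1 lower, with a median of 1.97. Medians for the 3 lists against macrophages were 2.72 (cDC1-associated), 2.22 (shared) and -0.13 (development).

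Between WT and *Mbd2*-/- cDC1s, 0 of 15 tested cDC1-associated genes, 0 of 14 shared genes and 0 of 24 development genes were called, with medians of -0.12, 0.11 and 0.017 beside 0.026 for all tested probes. Of all tested probes 1.88% were called, so 0 calls among so few genes lie near that share. Some markers of other cells were called higher in *Mbd2*-/- cDC1s. These were 1 of 6 tested cDC2 markers, 2 of 7 plasmacytoid dendritic cell markers and 1 of 2 granulocyte markers, with 0 called lower. The macrophage, monocyte, mature dendritic cell, T and NK, B and plasma cell, and epithelial lists had 0 calls. The paper reports *Itgae* among the genes lower in *Mbd2*-/- cDC1s, and a small drop in CD103 protein on these cells. Here its counted probe averaged 13.12 in WT and 13.00 in *Mbd2*-/- cDC1s and was not called. For listed genes only the brightest probe was read. In macrophages 0 of the cDC1-associated, shared and development genes were called, beside 1.45% of all tested probes. In monocytes *Batf2* was called higher in *Mbd2*-/- (1.55, standard error 0.38, adjusted p = 0.0321), where 0.42% of all tested probes were called. The genotype effect differed between cDC1s and macrophages for 2 of 15 cDC1-associated, 2 of 14 shared and 2 of 25 development genes tested, beside 10.8% of all tested probes, so these shares lie near that of all probes. *Tlr3* (0.76, adjusted p = 0.0165) and *Ppt1* (-1.08, adjusted p = 0.0361) were the cDC1-associated ones, with *Haao* (1.24, adjusted p = 0.0213) and *Napsa* (0.84, adjusted p = 0.0223) of the shared genes, and *Irf4* (1.01, adjusted p = 0.0326) and *Tcf4* (-0.45, adjusted p = 0.0354) of the development genes.

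**Figure D5:**
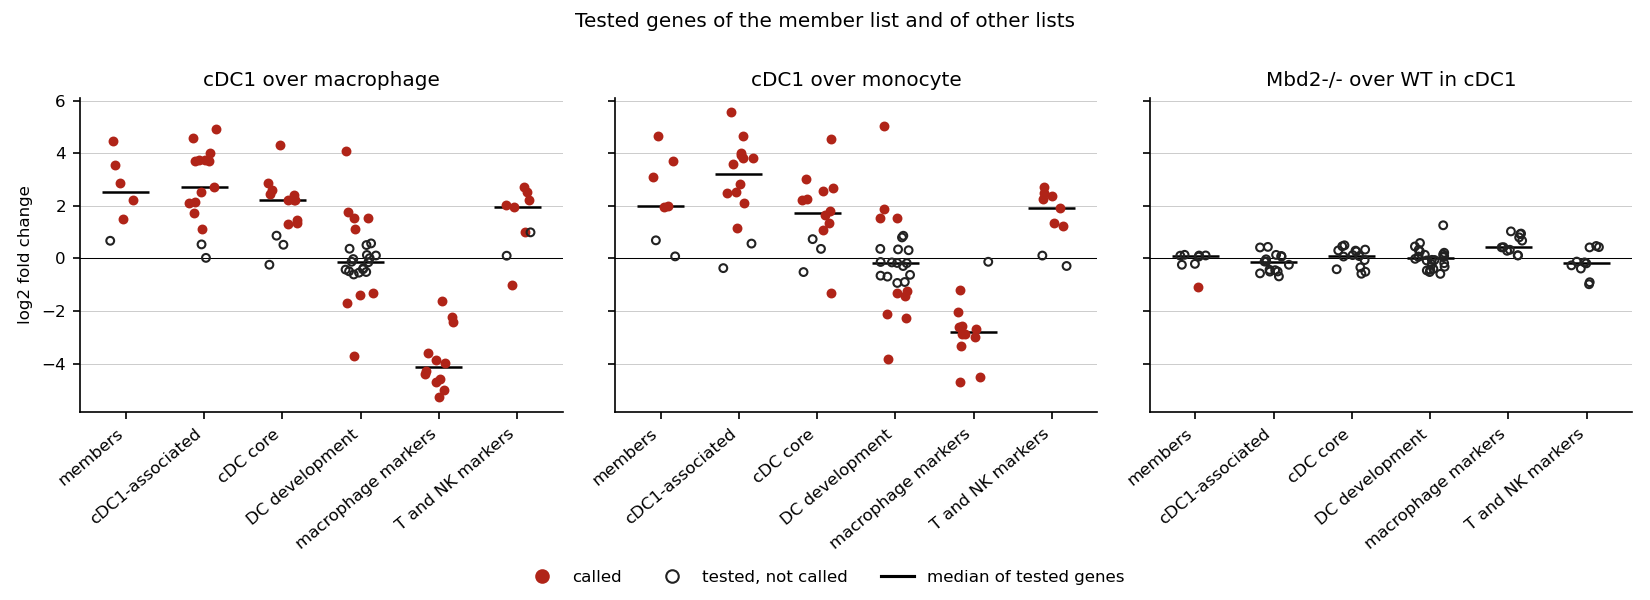
Log2 fold change (y axis) of each tested gene of the members and of 5 other lists (x axis) in 2 comparisons of cell types and in the genotype comparison in cDC1s; red points were called, open points were tested and not called, and lines are medians of the tested genes. The cDC1-associated list lies at a median of 2.72 over macrophages and at -0.12 between genotypes in cDC1s.

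The genes whose profiles lay closest to those of the members were found by the root mean square difference of centred log2 levels over the 25 arrays, among 25553 probes above background on at least 2 arrays. Closest to the median profile of the members was *Cbfa2t3h* (distance 0.198), a symbol that RefSeq gives as an older name of *Cbfa2t3*, a corepressor gene; it read 5.84 to 6.47 in cDC1s, 4.37 to 4.81 in macrophages and 4.34 to 4.70 in monocytes. *1700009J07Rik* (0.210), *LOC100047707* (0.216), *2810423O19Rik* (0.221), *Ubfd1* (0.223), *Lrrc3* (0.223), *Fcho1* (0.225), *Elac2* (0.229), *Slc25a38* (0.230) and *EG626058* (0.237) followed.

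For single members, *Gcet2* (an older symbol of *Gcsam*, 0.232), *Sema4f* (0.302) and *Snx22* (0.306) lay closest to *Xcr1*. *Sema4f* (0.253), *Gpr33* (0.265) and *2810046M22Rik* (0.291) lay closest to *Clec9a*. *Sept6* (0.209), *Tcf19* (0.232) and *Ears2* (0.234) lay closest to *Zbtb46*, *Pkib* (0.244), *Tyms-ps* (0.275) and *Spc25* (0.279) to *Irf8*, and *Unc119* (0.240), *Akr7a5* (0.325) and *Acot7* (0.329) to *Batf3*. *Asb2* (0.365) lay closest to the *Igsf4a* probe, with macrophages well above monocytes. *Arpc2* (0.201), *Nfu1* (0.222) and *LOC545396* (0.222) lay closest to *Id2*. The nearest profiles to *Ly75* were *Sfxn2* (0.177), *Cdk10* (0.181) and *Mthfd1* (0.182), with means of 5.05 to 5.19 in cDC1s and 4.29 to 4.37 in the other cell types. For *Flt3* (*Rpl9*, *Spop* and *Psma2*) and *Naaa* (*Fmo4*, *Tex24* and *LOC545238*) the distances were 0.128 to 0.145.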

How the data were processed

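Bead intensities of 27 Illumina MouseWG-6 arrays were taken from the table the authors deposited, in which each probe has an intensity and a detection p-value per array with no normalization applied. The submitters' processing notes name lumi and limma, with versions not given in the sources used here. The paper and the deposited record differ on the RNA kit, on the limit set for RNA integrity and on the number of mice per replicate. The table also holds 3 signal columns that match no sample and were not used.

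The 25 colon arrays were background-corrected by normexp (limma 3.58.1, R 4.3.3, offset 16, negative controls inferred from the detection p-value), quantile normalized and log2 transformed. A linear model with the 6 groups of cell type and genotype was fitted to all probes, with moderated tests (eBayes) and Benjamini-Hochberg adjustment over all probes tested in a comparison. Probes entered a comparison if the number of arrays with a detection p under 0.05 was no less than the number of arrays on its smaller side. Comparisons of cell types are the mean of the WT and the *Mbd2*-/- difference. A call needed an adjusted p under 0.05 and a log2 fold change of at least 1, and interactions the adjusted p alone. For a gene with several probes the brighter was counted. Where one side was above background on no array, the fold is a lower bound against the dimmest signal above background. The number of arrays limits the precision, and p-values rest on the spread between these samples, pooled over the 6 groups. The fit was tested on simulated data.

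The members and gene lists were chosen with earlier results of these data known. Named genes were all members, and up to 6 called genes per list and comparison with the largest change, beside a few named after their values were seen (*Tlr3*, *Cd8a* and *Ifi205*, and genes with an interaction). Markers of T and NK cells, macrophages, monocytes, mature dendritic cells, cDC2s, plasmacytoid dendritic cells, B cells, epithelium and granulocytes were read as checks. Alternatives covered background correction, normalization, filters, thresholds, probe choice, array weights and leaving out single arrays. The splenic CD4 T cell arrays, 1 per genotype, entered no comparison.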

Additional observations from a re-analysis of the deposited data

Results flagged for a closer look

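The genotype effect on *Zbtb46* differed between cDC1s and macrophages by 0.65 on the log2 scale, and that on *Ly75* differed between cDC1s and macrophages by -1.01 and between cDC1s and monocytes by -1.09, each past the adjusted p of limma's interaction test. *Ly75* was above background on no macrophage or monocyte array, so its interactions restate the difference in cDC1s. *Flt3* on *Mbd2*-/- macrophage array 19 stood apart from the other arrays of its group, with a gap of 0.743 of the group's range. It was 1 of 30 groups examined in this way, and chance gives about 1 in 20.

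The splenic CD4 T cell arrays, normalized together with the colon arrays and used in no comparison, held several members above background. *Id2* read 11.26 (WT) and 10.91 (*Mbd2*-/-), *Irf8* 6.37 and 7.09, *Ly75* 6.08 and 6.10 and the *Igsf4a* probe 4.61 and 4.92. *Batf3* was above background on the *Mbd2*-/- array (4.90) and *Xcr1* on the WT array (4.56). With 1 array per genotype these values have no replicate check.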

How the results depend on the processing

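No paired analysis was made, because the numbers in the labels name the arrays and give no mouse or experiment. The paper states that the replicates came from separate experiments. Whether arrays of different cell types came from the same mice is not given by the labels. The main fit treated all arrays as independent. Runs of 6 table columns as a random block had a consensus correlation of 0.0183.

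The 5 members called higher in cDC1s than in macrophages and monocytes kept their direction under all alternatives run. The counts of members called in these comparisons stayed within 1.5 times, and *Irf8* against macrophages was 0.99 with median scaling. With no background correction the probes called were 1474, 1561 and 333 for cDC1s over macrophages, cDC1s over monocytes and macrophages over monocytes (2965, 3011 and 800 as reported), and 89, 89 and 21 between genotypes in cDC1s, macrophages and monocytes (336, 244 and 68 as reported). With offset 50 they were 1927, 2006, 469, 133, 124 and 35. Under both settings 0 members were called between genotypes in cDC1s. With no fold limit the counts were 9839, 9591, 6597, 1536, 1214 and 383, and members called were 2 for macrophages over monocytes and 1 each between genotypes in macrophages and monocytes. At an adjusted p under 0.01, 131, 54 and 45 probes were called between genotypes. The interactions then held 308, 58 and 4 probes (2060, 457 and 7 as reported for cDC1s minus macrophages, cDC1s minus monocytes and macrophages minus monocytes), with 0 members in each of those with cDC1s. With no filter on dim probes 220 and 93 probes were called between genotypes in cDC1s and macrophages, and the interactions with cDC1s held 897 and 132, with 1 and 0 members. Median scaling gave 577 and 80 between genotypes in cDC1s and macrophages, and interactions of 1160, 37 and 2. Cyclic loess left 1 member in the interaction of cDC1s with macrophages and 2 probes in that of macrophages with monocytes. Cell types fitted alone gave 0 probes and 0 members between genotypes in cDC1s, 48 probes in macrophages, 346 probes and 0 members in the interaction with macrophages and 0 members in that with monocytes. Array weights gave 131, 130 and 128 between genotypes, and interactions of 433 (1 member), 185 and 13. Counting the *Igsf4a* probe as *Cadm1* gave 1 member for macrophages over monocytes. The cause was not tested.

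With single arrays left out, probes called between genotypes ranged from 204 to 1122 in cDC1s, 77 to 412 in macrophages and 47 to 110 in monocytes, and interactions from 609 to 3378, 235 to 1989 and 5 to 12. Members called ranged from 0 to 1 between genotypes in cDC1s (0 without array 23 or 28), from 0 to 3 in the interaction with macrophages (0 without 23, 1 without 26) and from 0 to 1 in that with monocytes (0 without 23, 28 or 30).

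Some differences changed sign, and of these *Ly75* in cDC1s, its interactions and the *Zbtb46* interaction with macrophages were past the threshold as reported. With median scaling the genotype difference in cDC1s was -0.21 for *Irf8*, -0.47 for *Batf3*, -0.37 for *Id2*, -0.52 for *Zbtb46*, -0.019 for *Flt3* and -0.21 for *Igsf4a*, in macrophages -0.078 for *Id2*, and in monocytes -0.12 for *Batf3* and -0.23 for *Id2*. Macrophages minus monocytes gave -0.021 for *Id2*. The interaction with macrophages was then -0.17 for *Batf3*, -0.29 for *Id2*, -0.00012 for *Zbtb46* and -0.33 for *Igsf4a*, that of cDC1s with monocytes -0.14 for *Id2* and -0.013 for *Zbtb46*, and that of macrophages with monocytes 0.0028 for *Irf8*, 0.15 for *Id2* and 0.035 for *Igsf4a*. Cyclic loess gave -0.15 for *Zbtb46* and -0.0076 for *Flt3* between genotypes in cDC1s and 0.14 for the *Irf8* interaction with macrophages. The *Igsf4a* interaction with monocytes was 0.15 in cDC1s and 0.046 in macrophages with no background correction, 0.10 and 0.00096 with offset 50, and 0.014 in cDC1s with macrophages left out of the fit. Array weights gave -0.10 for *Id2* between genotypes in macrophages and -0.038 for its interaction in cDC1s with monocytes. *Batf3* in macrophages over monocytes was 0.0090 in WT arrays and *Id2* -0.025 in *Mbd2*-/- arrays. The dimmer probes gave -0.062 for *Id2* between genotypes in macrophages, 0.63 for *Clec9a* and 0.11 for *Ly75* between genotypes in cDC1s, interactions with macrophages of 0.57 for *Clec9a* and 0.15 for *Ly75*, and interactions with monocytes of 0.67 for *Clec9a*, 0.13 for *Flt3* and 0.12 for *Ly75*, the *Ly75* and *Flt3* probes being above background on no array.

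With single arrays left out the genotype difference in cDC1s ranged from -0.022 to 0.23 for *Irf8*, -0.20 to 0.42 for *Id2*, -0.63 to 0.14 for *Xcr1* and -0.071 to 0.21 for *Flt3*, and in macrophages from -0.15 to 0.099 for *Id2*. *Id2* in macrophages over monocytes ranged from -0.025 to 0.098. Interactions with macrophages ranged from -0.17 to 0.082 for *Irf8*, -0.22 to 0.40 for *Id2*, -0.51 to 0.26 for *Xcr1*, -0.0068 to 0.27 for *Flt3* and -0.15 to 0.34 for *Igsf4a*. Those with monocytes ranged from -0.19 to 0.083 for *Batf3*, -0.30 to 0.32 for *Id2*, -0.51 to 0.25 for *Xcr1*, -0.20 to 0.083 for *Flt3* and -0.25 to 0.24 for *Igsf4a*.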
